A study of Homo sapiens with 4 samples.

Results

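The constant segments of the T-cell receptor (TCR) genes were followed in Jurkat T cells. The 6 genes TRAC, TRBC1, TRBC2, TRDC, TRGC1 and TRGC2 were chosen by name from the 50868 genes in the files, and they were chosen on measured values, since their differences between these libraries were already known. Their levels are therefore a description, and no test was made. RNA-seq was carried out on Jurkat cells, an established human T lymphoblast line labelled wild type, after 24 h in 1 of 4 conditions. The DMSO library came from cells given the solvent only. The JQ1 library came from cells given 0.5 μM JQ1, a small-molecule inhibitor of the BET bromodomain proteins. The DMSO + PHA library came from cells given the solvent and 150 ng/ml phytohemagglutinin (PHA), a plant lectin that binds T-cell surface glycoproteins and stimulates the cells, and the JQ1 + PHA library came from cells given both agents at these doses. There was 1 library per condition, so intervals cover counting error only (copies made by PCR are not independent molecules) and the spread between cultures is unknown. The line is a single leukemic clone, and in bulk RNA fewer cells with a transcript and less transcript per cell cannot be told apart.

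The TCR of most T cells is a heterodimer of an α and a β chain held in a complex with the CD3 chains, whereas γδ T cells carry a γ and a δ chain instead. Each chain is made from a variable (V) segment that DNA rearrangement has joined, through a joining segment, to a constant segment, which encodes the part of the chain next to the membrane. TRAC encodes the constant part of the α chain, TRBC1 and TRBC2 are alternative β constant segments, TRGC1 and TRGC2 are alternative γ constant segments, and TRDC encodes that of the δ chain. The Jurkat receptor is known to be an αβ receptor that uses TRAV8-4, TRBV12-3 and TRBC1.

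Total counts lay between 18620954 and 19685401 per library, so that 3 counts, the floor used here, equal 0.152 to 0.161 CPM (each count as its part of the library total, times a constant). The T-cell label was checked on the 7 αβ T-cell markers that are not members (CD3D, CD3E, CD3G, CD247, CD2, CD5 and CD7). All 7 passed a mean of 1 in FPKM, the deposited counts scaled by gene length and library total, and their summed FPKM was 255.1 in DMSO, 130.4 in JQ1, 279.9 in DMSO + PHA and 147.2 in JQ1 + PHA, so it was lower in both JQ1 libraries. Of 6 B-cell markers only CD79A passed, PECAM1 was the only 1 of 4 epithelial and stromal markers, and 0 of 5 NK-cell, 0 of 6 myeloid and 0 of 3 erythroid markers did. The summed FPKM of the B-cell list was 7.57 and 6.74 in the libraries without JQ1 against 1.06 and 1.01 with JQ1, and that of the epithelial and stromal list 14.4 and 19.8 against 2.19 and 2.93, and the part of these lists in the results was not tested. Of 6 γδ T-cell markers TRGC2 alone passed, and mitochondrial genes took 6.27% to 7.07% of counts. In the JQ1 libraries HEXIM1, a known BET-inhibitor response gene, stood at FPKM 108.5 without and 104.3 with PHA, against 36.2 and 34.6 in the matched DMSO libraries. In the PHA libraries EGR1, an immediate-early gene of TCR signalling, reached FPKM 39.9 in DMSO + PHA and 6.85 in JQ1 + PHA, against 0.491 and 0.405 in the unstimulated libraries. Both labels were thus carried by their check genes.

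The constant segments did not move together. TRAC was 13.2-fold higher in DMSO + PHA than in DMSO, and the γ segment TRGC2 was 6.38-fold higher, whereas TRBC1 and TRBC2 differed by 1.14-fold each. TRAC was lower with JQ1 in both settings, 1.95-fold without PHA and 4.42-fold with PHA. TRBC1 stayed within 1.19-fold over all 4 libraries in raw counts. TRDC had 0 counts in every library.

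Genes were counted as past 2-fold on the ratio of FPKM + 0.1, among the 11503 genes whose FPKM averaged 1 or more. Of the 6 members, 4 passed this filter (TRAC, TRBC1, TRBC2 and TRGC2). TRGC1 fell just short with a mean FPKM of 0.995, and TRDC was at 0. In DMSO + PHA against DMSO, TRAC and TRGC2 were the 2 members at least 2-fold higher and 0 were lower, where 2.1% of all genes were higher and 1.19% lower. In JQ1 + PHA against JQ1, TRAC was the 1 member past 2-fold, and it was higher, where 1.04% of all genes were higher and 1.03% lower. In JQ1 against DMSO, 0 of the 4 were past 2-fold, where 5.22% of all genes were higher and 8.65% lower. In JQ1 + PHA against DMSO + PHA, 2 members, TRAC and TRGC2, were lower and 0 higher, where 3.69% of all genes were higher and 8% lower. The median log2 ratio of the 4 members was 1.41, 0.38, -0.22 and -1.08 in these comparisons in this order, beside -0.0063, -0.0022, -0.012 and -0.021 over all genes. The members were chosen with these contrasts known, so nothing is read from these counts.

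**Figure D1:**
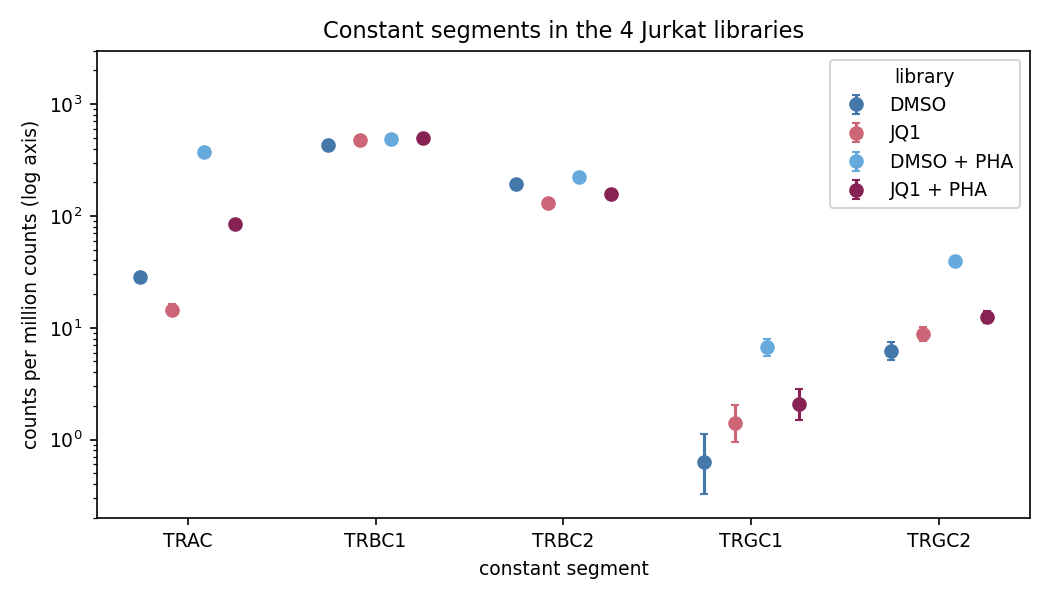
CPM (log axis) of the 5 constant segments with counts, in the DMSO, JQ1, DMSO + PHA and JQ1 + PHA libraries; each point is 1 library and bars are exact 95% counting intervals, hidden where smaller than the point. TRAC runs from 14.5 CPM with JQ1 to 375.6 CPM with DMSO + PHA, while TRBC1 lies between 429.0 and 498.4 CPM.

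TRAC, the only α constant segment, showed the widest range of the 5 members with counts. GENCODE places it at chr14:22547506-22552156 on the plus strand of GRCh38, with 4 exons. Its counts were 534 in the DMSO, 286 in the JQ1, 7393 in the DMSO + PHA and 1582 in the JQ1 + PHA library, and the FPKM were 16.7, 8.56, 221.3 and 50.1. DMSO + PHA was the highest library and JQ1 the lowest, 25.8-fold apart in raw counts, and each step in the order DMSO + PHA, JQ1 + PHA, DMSO, JQ1 was larger than its counting interval.

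The PHA difference of TRAC was 3.73 on the log2 scale with DMSO (95% interval 3.60 to 3.86), which ranked 11 from the top among the 11503 genes. It was 2.55 with JQ1 (2.36 to 2.73), at rank 14. The ratio with JQ1 minus that with DMSO was -1.18 (-1.40 to -0.96). In the presence of JQ1 the count was thus still higher with PHA, and JQ1 + PHA stood 2.99-fold above the DMSO library. The JQ1 difference was -0.97 without PHA (-1.18 to -0.76) and -2.14 with PHA (-2.22 to -2.07), the latter 170 from the bottom of the ranking.

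The β constant segments had the highest FPKM of the members in every library. In DMSO + PHA the rank of TRBC2 above TRAC rests on unlike gene lengths, 758 and 1697 bases as implied by count and FPKM. In counts TRAC was the higher of these there, at 7393 against 4368. TRBC1 lies at chr7:142791694-142793368 and TRBC2 at chr7:142801041-142802748, both on the plus strand with 4 exons, and 7672 bases apart. The first exons, 387 bases long, differ at 7 positions and are 98.2% identical. Of all 50-base windows in the TRBC1 transcript, 23.5% also occur in that of TRBC2, and 11.2% of the 100-base windows do. The last exons are 58.5% identical. How reads that match both segments were counted is not given in the sources used here, so the division between TRBC1 and TRBC2 is uncertain.

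TRBC1 had 8072 counts in DMSO, 9312 in JQ1, 9598 in DMSO + PHA and 9281 in JQ1 + PHA, or FPKM of 329.5, 363.5, 374.5 and 382.8. All 4 libraries were close, with DMSO the lowest. Its log2 ratios were 0.18 for DMSO + PHA against DMSO (0.14 to 0.23), 0.07 for JQ1 + PHA against JQ1 (0.03 to 0.12) and 0.14 for JQ1 against DMSO (0.10 to 0.18). The last comparison, JQ1 + PHA against DMSO + PHA, gave 0.03 (-0.01 to 0.07), an interval that includes 0. With TMM and DESeq2 factors it came to 0.082 and 0.091, above this interval. The sign of neither JQ1 value is settled, since the counts of TRBC1 and TRBC2 summed gave -0.047 (-0.084 to -0.010) without PHA and -0.12 (-0.15 to -0.081) with PHA.

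TRBC2, the other β segment, had 3661, 2565, 4368 and 2910 counts in the same order of libraries, and FPKM of 256.7, 172.0, 292.7 and 206.2. Both JQ1 libraries lay below both DMSO libraries. The JQ1 log2 ratio was -0.58 without PHA (-0.65 to -0.50) and -0.51 with PHA (-0.57 to -0.44). These values rest on the uncertain division between TRBC1 and TRBC2, and came down to the same -0.047 and -0.12 where the pair was summed. The PHA log2 ratio was 0.19 with DMSO (0.13 to 0.25) and 0.26 with JQ1 (0.18 to 0.34), and their difference was 0.07 (-0.03 to 0.17), within counting error. TRBC1 accordingly made up 68.8% of the summed TRBC1 and TRBC2 counts with DMSO and 68.7% with DMSO + PHA, but 78.4% with JQ1 and 76.1% with JQ1 + PHA (the widest Wilson interval was 68.0% to 69.6%, for DMSO).

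**Figure D2:**
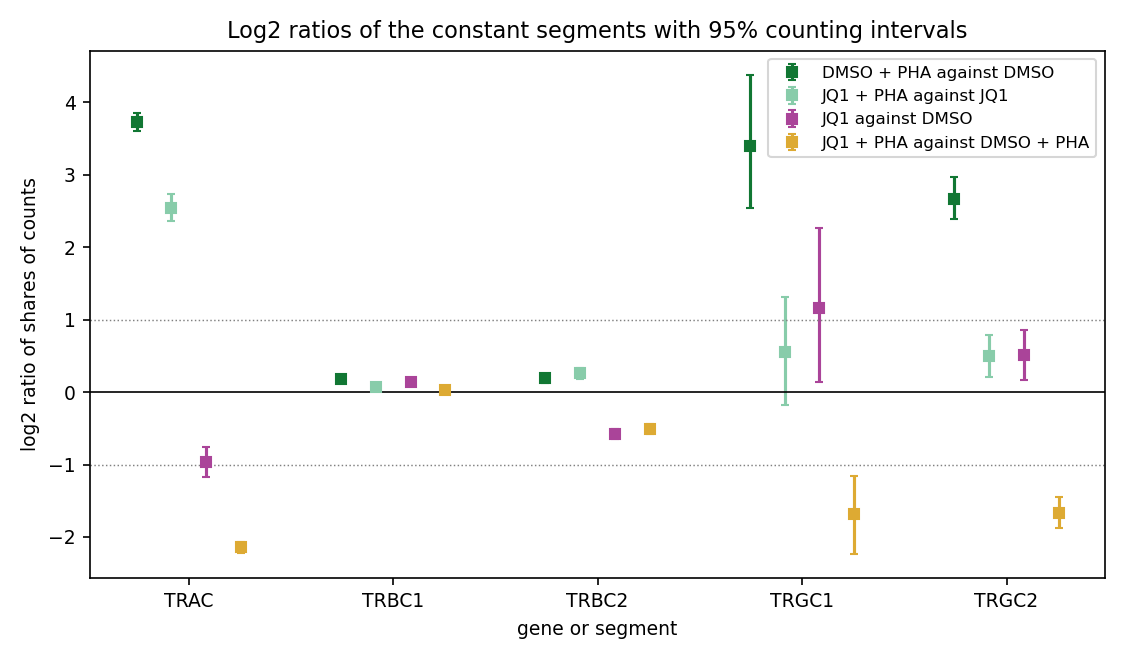
Log2 ratios of the shares of counts of 5 constant segments in the 4 comparisons (squares), with 95% exact counting intervals as bars and dotted lines at 2-fold. TRAC, TRGC1 and TRGC2 have PHA ratios of 3.73, 3.39 and 2.67 with DMSO, and TRBC1 and TRBC2 stay between the dotted lines in all 4 comparisons.

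The balance between α and β transcripts shifted with both agents. The FPKM of TRBC1 was 19.7 times that of TRAC with DMSO and 42.4 times with JQ1. With DMSO + PHA this ratio came down to 1.69, and with JQ1 + PHA it was 7.65. For TRBC1 and TRBC2 summed, the ratio was 35.1 in DMSO, 62.5 in JQ1, 3.01 in DMSO + PHA and 11.8 in JQ1 + PHA. The gene lengths implied by count and FPKM were 1302 bases for TRBC1, 758 for TRBC2 and 1697 for TRAC. Only that of TRBC2 equals its exon length, so TRBC2 weighs more in this sum. As a share of the summed TRAC, TRBC1 and TRBC2 counts, TRAC took 4.35% in DMSO (Wilson interval 4.01% to 4.73%), 2.35% in JQ1 (2.1% to 2.64%), 34.6% in DMSO + PHA (34.0% to 35.3%) and 11.5% in JQ1 + PHA (11.0% to 12.0%). No interval met another, and the share followed the TRAC count, the β counts being nearly level.

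**Figure D3:**
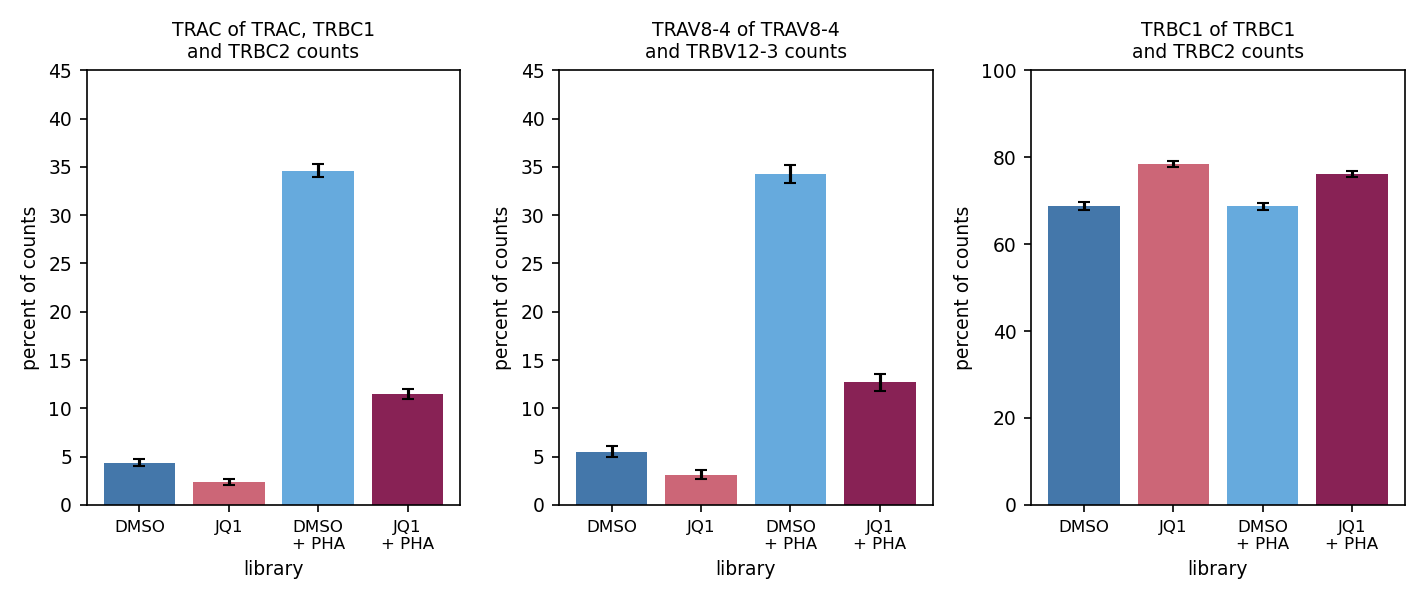
Percent of counts in each library for TRAC among TRAC, TRBC1 and TRBC2 (left), TRAV8-4 among TRAV8-4 and TRBV12-3 (middle) and TRBC1 among TRBC1 and TRBC2 (right); each bar is 1 library and whiskers are Wilson 95% intervals. TRAC takes 4.35%, 2.35%, 34.6% and 11.5% from left to right, and TRAV8-4 takes 5.50%, 3.10%, 34.2% and 12.7%.

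The γ constant segments were low, and both were highest in the DMSO + PHA library. Both lie on the minus strand of chromosome 7, TRGC1 at chr7:38257879-38265678 and TRGC2 at chr7:38239580-38249572. Their first exons, 330 bases long, differ at 6 positions. The first 150 bases, shown because TRGC1 and TRGC2 counts rest on telling them apart, hold 4 of the differences in capitals (minus strand of GRCh38, chr7:38265529-38265678 and chr7:38249423-38249572).
TRGC1: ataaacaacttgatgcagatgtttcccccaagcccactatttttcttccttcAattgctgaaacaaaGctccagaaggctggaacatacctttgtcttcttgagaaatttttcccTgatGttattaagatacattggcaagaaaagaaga
TRGC2: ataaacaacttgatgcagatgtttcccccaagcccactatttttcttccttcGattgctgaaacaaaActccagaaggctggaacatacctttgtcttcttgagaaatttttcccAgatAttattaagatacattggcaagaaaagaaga
With positions counted from the first base of exon 1 and TRGC1's base first, these are A53G, G68A, T116A and G120A. Of the 50-base windows in the TRGC2 transcript, 44.7% also occur in that of TRGC1, against 16.1% the other way, TRGC1 having a last exon of 2352 bases and TRGC2 one of 587.

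TRGC2 had 117 counts in DMSO, 174 in JQ1, 781 in DMSO + PHA and 233 in JQ1 + PHA, and FPKM of 3.15, 4.47, 20.1 and 6.33. The DMSO + PHA library stood above all the others. The PHA log2 ratio was 2.67 with DMSO (2.39 to 2.97; rank 30) and 0.50 with JQ1 (0.21 to 0.79), a difference of -2.17 (-2.57 to -1.77). JQ1 went with a higher TRGC2 level without PHA, at 0.51 (0.16 to 0.86), and with a lower one with PHA, at -1.66 (-1.88 to -1.45; 293 from the bottom).

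TRGC1, the other γ segment, had 12, 28, 132 and 39 counts in the same order, so its intervals were wide. Its FPKM was 0.234, 0.521, 2.46 and 0.767, and DMSO + PHA was again the highest and DMSO the lowest. The PHA log2 ratio was 3.39 with DMSO (2.54 to 4.38), and 0.56 with JQ1 (-0.18 to 1.31), which counting error covers. The JQ1 log2 ratio was 1.16 without PHA (0.14 to 2.27) and -1.68 with PHA (-2.23 to -1.15). On FPKM with a pseudocount of 1, which weighs on such low values, the PHA value with DMSO was 1.49 and the JQ1 value with PHA -0.97. TRGC2 made up between 85.5% and 90.7% of the summed γ constant counts. These γ transcripts came without a δ partner, since TRDC had 0 counts in each library, which allows up to 0.161 CPM in the shallowest, and the 3 TRDV segments had 0 counts too.

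The loci in the files extend beyond the constant segments for some members. TRAC spans 42916 bases in the files against 4651 in GENCODE, TRBC1 72699 against 1675, and TRGC2 128512 against 9993. The gene length implied by count and FPKM is also longer than the exons, 1697 against 978 bases for TRAC, 1302 against 760 for TRBC1 and 1977 against 1013 for TRGC2. The FPKM of these 3 genes are thus per that longer length, whereas TRBC2 and TRGC1 have the same span in both. On these loci TRBC1 overlaps TRBV28 by 491 bases, and TRGC2 overlaps the whole of TRGC1 (7800 bases) and 26515 bases of the lncRNA TRG-AS1, which lies on the opposite strand. Whether strand was used in counting is not given in the sources used here, so reads of TRGC2 and TRG-AS1 cannot be told apart where they overlap. TRG-AS1 had 489, 209, 1289 and 241 counts, so that it was 2.45-fold lower with JQ1 than with DMSO, where TRGC2 was 1.42-fold higher.

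The V segments were set beside the constant segments as context. A V segment was called expressed at a mean count of at least 10 over the 4 libraries, which 4 of 54 TRAV, 7 of 68 TRBV, 5 of 14 TRGV and 0 of 3 TRDV segments reached. One segment led at α and at β. TRAV8-4 held 72.0% of all TRAV counts in DMSO, 70.4% in JQ1, 86.2% in DMSO + PHA and 88.1% in JQ1 + PHA, and TRBV12-3 held 90.7%, 95.1%, 94.9% and 96.1% of all TRBV counts. These are the segments of the known Jurkat receptor. Other V segments of the TRAV8 and TRBV12 families can be close in sequence, so counts of a few reads on them are uncertain. The likeness of V segments was not compared here, and the minor α and β segments named below belong to other families by name.

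TRAV8-4, at chr14:21894433-21895030 and 652475 bases before TRAC, kept to the order of TRAC. Its counts were 298 in DMSO, 162 in JQ1, 3339 in DMSO + PHA and 708 in JQ1 + PHA. DMSO + PHA was the highest and JQ1 the lowest library. The PHA fold was 10.7 with DMSO and 4.62 with JQ1, and JQ1 went with a 1.92-fold lower level without PHA and a 4.46-fold lower one with PHA. The difference of its PHA log2 ratios was -1.21 (-1.51 to -0.91), beside -1.18 for TRAC. The FPKM of TRAC was 0.495, 0.488, 0.612 and 0.618 times that of TRAV8-4 in the 4 libraries.

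The minor α segments TRAV18 (61, 36, 245 and 53 counts), TRAV17 (25, 15, 192 and 27 counts) and TRAV19 (11, 7, 43 and 5 counts) were also highest with DMSO + PHA. All 4 expressed TRAV segments had a PHA interval above 0 with DMSO, and all 4 a JQ1 interval below 0 in the presence of PHA. TRAV19 averaged below 10 counts over the libraries other than DMSO + PHA. It was called expressed through that library, so its place in both tallies was partly set by the limit. The PHA log2 ratio in DMSO was 1.94 for TRAV18 (1.53 to 2.37) and 2.88 for TRAV17 (2.27 to 3.54). With JQ1 only TRAV8-4 of the 4 had a PHA interval above 0.

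TRBV12-3, at chr7:142560423-142560931 and 230762 bases before TRBC1, was level like TRBC1. Its counts were 5121 in DMSO, 5067 in JQ1, 6411 in DMSO + PHA and 4877 in JQ1 + PHA, 1.31-fold apart at most. Only DMSO + PHA stood out. The log2 ratios were 0.26 for PHA with DMSO (0.21 to 0.31), 0.02 for PHA with JQ1 (-0.03 to 0.08), -0.08 for JQ1 without PHA (-0.14 to -0.02) and -0.31 for JQ1 with PHA (-0.37 to -0.26). TRAV8-4 as a share of the TRAV8-4 and TRBV12-3 counts was 5.50%, 3.10%, 34.2% and 12.7% in the 4 libraries, close to the values of TRAC among the constant segments.

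The minor β segments followed another course. TRBV7-2 had 235, 101, 127 and 88 counts, TRBV28 106, 77, 117 and 42, TRBV7-3 67, 40, 34 and 31, and TRBV8-2 23, 8, 15 and 6. Here DMSO was highest or nearly so, and all 7 expressed TRBV segments, TRBV12-3 included, had a JQ1 interval below 0 without PHA. With PHA and DMSO, 1 of the 7 (TRBV12-3) had an interval above 0 and 3 had one below. TRBV8-2, TRBV7-4 (26, 7, 11 and 5 counts) and TRBV13 (19, 8, 9 and 9) averaged below 10 counts over the libraries other than DMSO. They were called expressed through the DMSO library, so these tallies were partly set by the limit. TRBV28 overlaps the TRBC1 locus of the files, as given above.

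Among the γ segments TRGV8 (38, 59, 284 and 93 counts) and TRGV7 (25, 67, 200 and 97 counts), a pseudogene in GENCODE, followed TRGC2. Together they held 28.5% of all TRGV counts in DMSO, 46.7% in JQ1, 69.1% in DMSO + PHA and 57.2% in JQ1 + PHA. TRGV5 (100, 82, 119 and 87), TRGV3 (27, 40, 34 and 27) and TRGV4 (12, 11, 23 and 15) had intervals that included 0 in all 4 comparisons. TRGV7 and TRGV8 lie inside the TRGC2 locus of the files, and so do TRGV5, TRGV3 and TRGV4. The deposited genes held 0 TRAJ and 0 TRBJ segments, and the other joining segments were not analysed here.

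**Figure D4:**
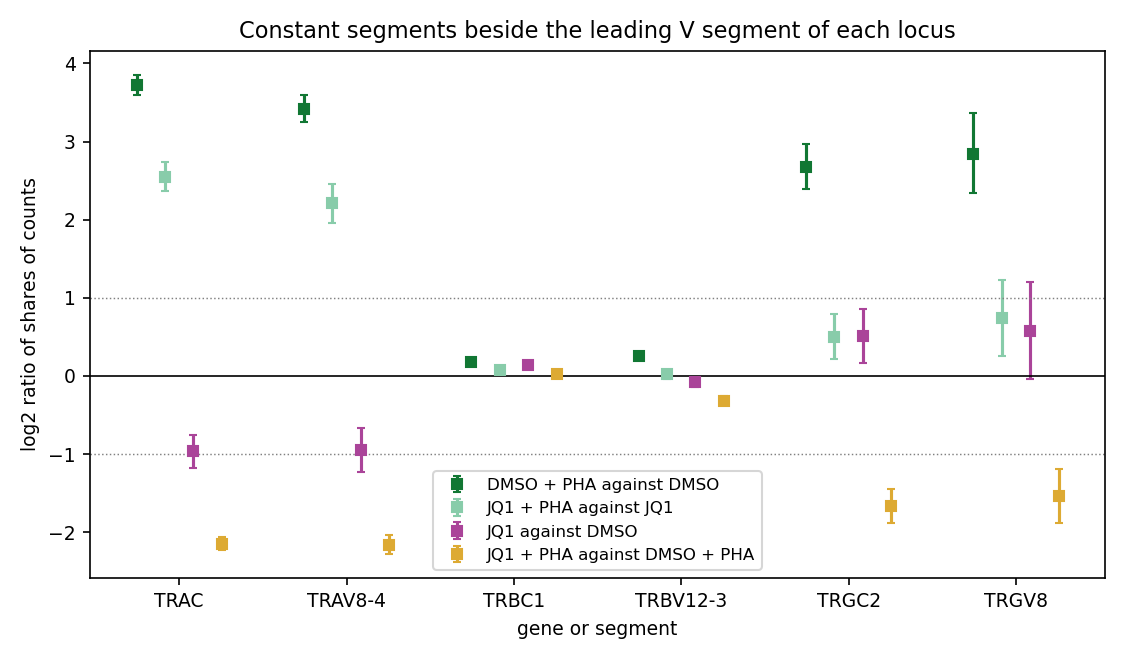
Log2 ratios of the shares of counts in the 4 comparisons for TRAC, TRBC1 and TRGC2, each beside the V segment with the most counts of its locus, with 95% exact counting intervals and dotted lines at 2-fold. TRAV8-4 (3.42 for PHA with DMSO) lies near TRAC (3.73), TRBV12-3 (0.26) near TRBC1 (0.18) and TRGV8 (2.84) near TRGC2 (2.67).

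Sequence around the α and β loci was examined because their members differed in the 4 comparisons. An enhancer region was searched at the α locus only. The TCR α enhancer is known to lie between TRAC and DAD1, and to hold a cyclic AMP response element (CRE) and a site for TCF/LEF proteins. In the 12750 bases between these genes in GENCODE, the 8 letters TGACGTCA and CCTTTGAA, searched on both strands, each occurred in 1 of 106 consecutive windows of 120 bases. A stretch of the same length placed to hold both is printed with the matches in capitals (plus strand of GRCh38, chr14:22556435-22556554), and the matches start 4299 and 4335 bases after the end of TRAC.
between TRAC and DAD1: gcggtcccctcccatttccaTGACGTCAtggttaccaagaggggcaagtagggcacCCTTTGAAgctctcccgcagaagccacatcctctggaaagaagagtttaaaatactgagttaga
DAD1, the neighbour on the other side, encodes a subunit of the oligosaccharyltransferase. It had 580, 763, 753 and 632 counts in the order of libraries used above, within 1.32-fold.

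V segment promoters of the β locus are known for a conserved decamer related to the CRE. The letters TGANGTCA (any base at N, both strands, TGACGTCA included) were found in the 120 bases before the annotated start of 28 of 48 TRBV genes with V gene annotation (58.3%) and of 1 of 45 TRAV genes (2.22%), beside 4.82% of 35116 RefSeq promoters over the same length. TRBV12-3 has 1 match, 51 bases before its start, in capitals in its 120 bases (plus strand, chr7:142560303-142560422), and TRAV8-4 (chr14:21894313-21894432) has none in these bases.
TRBV12-3: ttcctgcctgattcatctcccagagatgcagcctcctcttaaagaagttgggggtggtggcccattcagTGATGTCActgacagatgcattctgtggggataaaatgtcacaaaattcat
TRAV8-4: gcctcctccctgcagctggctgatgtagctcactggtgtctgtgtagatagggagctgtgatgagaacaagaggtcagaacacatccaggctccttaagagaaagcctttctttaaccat
TRGV7 and TRGV8 had no match to TGANGTCA in the 120 bases before their starts. The distance of annotated V gene starts from their promoters was not checked, so these shares may not cover like positions. A match is a run of letters and was not tied to binding in these cells.

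Partners of the chains in the receptor complex were set beside the members. Of 5 listed partners 4 passed the filter (CD3D, CD3E, CD3G and CD247), and 0 were past 2-fold with PHA, in DMSO or in JQ1. With JQ1, 1 of the 4 was lower without PHA and 2 with PHA, where 8.65% and 8% of all genes were. CD3E, which pairs with CD3D and CD3G, was past 2-fold with JQ1 at counts of 8670, 4130, 8355 and 3526, a log2 ratio of -1.13 without PHA and -1.16 with PHA. CD247, the ζ chain, had 956, 549, 1236 and 569 counts and passed 2-fold with JQ1 only in the presence of PHA, at -1.04. The median log2 ratio of these partners was 0.11 and 0.12 for PHA, and -0.80 and -0.85 for JQ1. PTCRA, the pre-TCR α chain, had 48, 4, 28 and 0 counts and was below the filter.

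The recombination genes RAG1, RAG2 and DNTT went the other way from TRAC with PHA, and the same way with JQ1. RAG1, which cuts V segments for joining, had 8591, 824, 2471 and 234 counts in that order. All 3 were past 2-fold lower in DMSO + PHA against DMSO and in both JQ1 comparisons, and RAG1 alone was in JQ1 + PHA against JQ1, where 1.19% and 1.03% of all genes were lower with PHA (in DMSO and in JQ1) and 8.65% and 8% with JQ1. Among 7 coreceptors and surface molecules 5 passed the filter, and CD28, the costimulatory receptor, was the 1 past 2-fold higher with PHA in DMSO (2.1% of all genes), at counts of 1190, 996, 3557 and 1250. With JQ1, 3 of the 5 were lower without PHA and 3 with PHA, where 8.65% and 8% of all genes were, led by the adhesion receptor CD2 at -2.29 and -2.80 on the log2 FPKM scale.

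Of 16 factors that bind TCR gene enhancers 15 passed the filter and few were past 2-fold. GATA3 was the 1 past 2-fold higher with PHA in DMSO (2.1% of all genes), at counts of 469, 916, 1041 and 992. TCF7 was the 1 higher with PHA in JQ1 (1.04% of all genes), at 8516, 4298, 9737 and 10272 counts. With JQ1 alone LEF1 was the 1 higher (9102, 22923, 17438 and 22009 counts) and TCF7 the 1 lower, where 5.22% and 8.65% of all genes were. With PHA and JQ1, MYB was the 1 lower (6647, 3639, 8635 and 3718 counts), where 8% of all genes were. Of 9 neighbours of the loci 8 were in the files and 4 passed the filter, and 0 were past 2-fold in any comparison.

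The genes whose course over the 4 libraries was most like TRAC were picked by the smallest root mean square difference of centred log2(FPKM + 0.1), over 4 libraries and leaving out TCR segments. CD69, an early activation marker, came first at 0.270, with counts of 67, 51, 1359 and 198. PDCD1, which encodes PD-1, came next at 0.560, with counts of 8, 1, 356 and 20. It passed the filter through the DMSO + PHA library alone (FPKM 0.130, 0.0155, 5.53 and 0.328), so that its distance depends on the pseudocount of 0.1, and its 1 count with JQ1 is under the floor. It was followed by RP11-385F5.4, AMIGO3 and DUSP2 at 0.754, 0.775 and 0.784. FGFR1, PPP1R16B and PI16 were nearest TRGC2, at 0.145, 0.199 and 0.211. RP11-385F5.4, AMIGO3 and FGFR1 also averaged below 1 in FPKM over the libraries other than DMSO + PHA. AMIGO3 had 3 counts with JQ1, and RP11-385F5.4 had 5 with DMSO and 4 with JQ1, so their distances depend on the pseudocount too. CRAT, ACSL4 and RRN3P3 were nearest TRBC2, and METTL9, RAB22A and ZNF184 nearest TRBC1, at 0.0215 or less and 0.00968 or less. With 4 libraries such likeness is a description of these libraries.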

How the data were processed

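RNA-seq of Jurkat T cells in 4 conditions, with 1 library each, was used. According to the study's methods, reads were aligned with Hisat2 2.0.4 to GRCh38, while the submitters' processing notes name TopHat2 2.0.9 and Cufflinks 2.1.1. The deposited counts are raw reads per gene, and the deposited FPKM are the authors' values, equal to the counts over a gene length and the library's total. The counting program, its treatment of strand and of reads that match several places, and the annotation release are not given in the sources used here, and the labels and the methods name different library kits.

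Shares of a library's total count were compared as log2 ratios with 95% exact (Clopper-Pearson) intervals, shares within a library with Wilson intervals, and differences of ratios with intervals from the Poisson variance of the 4 counts. A fold against 3 counts or fewer would be a lower bound. Genes past 2-fold were counted on FPKM + 0.1 for genes whose FPKM averaged 1 or more. No test was made with 1 library per condition. The members and lists were chosen with earlier results of these data known. Named genes were the members, the 5 expressed V segments of each kind with the most counts, the 3 list members with the largest change, check genes, and the genes nearest a member. V segments named beyond these, the γ segments past the top, PTCRA and DAD1 were named by the same limit or as list members after their values were seen. No TRAJ or TRBJ segment was among the deposited genes, and the other joining segments were not analysed here. The sequence of the β constant exons is not reported here. Sequences and exons came from GRCh38 and GENCODE release 44, and promoters from RefSeq.

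Alternatives were TMM and DESeq2 factors, centring, leaving out mitochondrial genes, other pseudocounts, filters and folds, and summing near-identical pairs. The ratios, intervals and counts of genes were tested on simulated counts. The tools were Python 3.11.15, numpy 2.4.6, pandas 2.3.3, scipy 1.17.1, matplotlib 3.10.9, R 4.3.3, and edgeR 4.0.16 and DESeq2 1.42.0 for scaling factors of the counts only.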

Additional observations from a re-analysis of the deposited data

Results flagged for a closer look

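The JQ1 difference pointed opposite ways without and with PHA for both γ constant segments and for 1 γ variable segment, with each interval away from 0. The log2 ratio of TRGC1 was 1.16 in JQ1 against DMSO and -1.68 in JQ1 + PHA against DMSO + PHA. For TRGC2 the values were 0.51 and -1.66, and for TRGV7 they were 1.36 and -0.96. The difference between the settings was not tested against the spread between cultures, since each condition had 1 library. TRGC1 rests on 12 counts in DMSO and TRGV7 on 25. TRGC1 shares sequence with TRGC2, and TRGV7 lies in the TRGC2 locus of the files.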

How the results depend on the processing

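Of 160 recomputed log2 ratios of the members, 147 stayed within the counting interval, 12 moved out of it, and 1 whose interval had excluded 0 changed sign. Signs changed where TRBC1 and TRBC2 were summed, for TRBC1 in JQ1 against DMSO (-0.047) and in JQ1 + PHA against DMSO + PHA (-0.12). The same sums replaced -0.58 and -0.51 for TRBC2. Scaling also moved small TRBC1 values out of their intervals. In JQ1 against DMSO, DESeq2 factors gave 0.187. In JQ1 + PHA against DMSO + PHA, TMM factors gave 0.082 and DESeq2 factors 0.091. The difference of the PHA ratios of TRAC stayed within its interval under each scaling and pseudocount tried. With a 1.5-fold limit 1 member (TRAC) passed in JQ1 against DMSO, and with a 4-fold limit 1 (TRAC) passed in JQ1 + PHA against DMSO + PHA. Genes past 2-fold, given for DMSO + PHA against DMSO, JQ1 + PHA against JQ1, JQ1 against DMSO, and JQ1 + PHA against DMSO + PHA, numbered 378, 238, 1595 and 1344. They numbered 189, 114, 881 and 754 with a pseudocount of 1, 1617, 1241, 3739 and 3416 with a mean FPKM of at least 0.1, 104, 68, 570 and 467 with one of at least 5, and 2588, 2058, 4742 and 4500 without a filter. With limits of 1.5-fold they numbered 1083, 648, 3924 and 3388, and with 4-fold 82, 54, 275 and 259. Other scalings and a pseudocount of 0.01 kept each count within 1.5 times. Depth limits TRGC1, at 12 to 132 counts, and the unstated handling of shared reads limits the split within each near-identical pair. No paired analysis was possible because each condition had 1 library, and for the same reason no replicate could be left out.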
